A study of Mus musculus with 20 samples.

Results

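The genes described here are 37 genes of fatty acid oxidation in mitochondria and peroxisomes, taken by gene name from tables that list 56805 genes. They comprise 18 genes of the mitochondrial route, 10 of the peroxisomal route, 2 whose products work in both compartments, 4 that activate fatty acids, and a group of 3 with a regulator and genes known as its targets. The RNA came from white adipose tissue of 20 mice in 4 groups of 5: chow with water, chow with a water extract of Tibetan tea, a high-fat diet with water, and a high-fat diet with the tea extract. Diet and drink were given freely for 10 weeks. Depot, strain, sex and age of the animals are not given in the labels. The comparisons ask what the high-fat diet and the tea did to white fat, alone and together.

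Long-chain fatty acids are joined to coenzyme A, passed into mitochondria by the carnitine shuttle and shortened by a repeated cycle of dehydrogenation, hydration, a second dehydrogenation and thiolysis. Electrons from the first dehydrogenation reach the respiratory chain through electron transfer flavoprotein. Peroxisomes shorten very long-chain and other unusual acyl groups with their own enzymes and hand the products on as carnitine esters. White adipocytes mainly store fat, whereas brown and beige adipocytes are rich in mitochondria and burn it.

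Each library held 53047057 to 93314761 reads in genes, and 21306 genes passed a filter on low counts, all 37 members among them. A level is given in CPM, the standard expression unit for a gene's share of a library's reads, after scaling between libraries, and a gene is called where the Benjamini-Hochberg adjusted p of edgeR's quasi-likelihood test over all 21306 genes is below 0.05. The adipocyte markers Adipoq, at 844 to 4157 CPM, and Plin1, at 338 to 1597 CPM, were present in every library. Transcripts of another tissue exceeded 1000 CPM in 9 libraries. Of these, chow water mouse 1 carried 303500 CPM of a pancreas list, high-fat water mouse 4 carried 35170 CPM of a reproductive tract list, and high-fat tea mouse 4 carried 24060 CPM of a kidney list, all on the unscaled library size. Chow water mouse 1 also carried 2985 CPM of a liver list and 2686 CPM of an intestine list. High-fat water mouse 4 also carried 14540 CPM of an adrenal cortex list. High-fat tea mouse 4 also carried 1795 CPM of the liver list and 643 CPM of the intestine list. Skeletal muscle was the largest such list in the 6 others, at 36110 CPM in high-fat tea mouse 1, 32720 CPM in high-fat water mouse 5 and 4803 to 9457 CPM in 4 more. One of these 6, chow water mouse 2, also carried 1882 CPM of the kidney list. Muscle itself expresses oxidation genes, so results of the group comparisons are also given without all 9 libraries. Those fits keep chow water mice 3 to 5 and chow tea mice 2 to 5. On the high-fat diet they keep only water mice 1 and 2 and tea mice 2 and 5. With so few mice, a call lost there says little. Below, the 3 libraries are chow water mouse 1, high-fat water mouse 4 and high-fat tea mouse 4, so fits without them keep chow water mouse 2. In bulk tissue, fewer cells of a type and less RNA per cell cannot be told apart.

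The stretches of DNA in front of 3 members are printed because the first 2 genes changed with diet and the third shares its stretch with a partner that it followed across libraries. Each is 250 bases up to the base before the RefSeq start site on build GRCm38.p6, read 5′ to 3′ along the gene's strand. Ehhadh lies on the minus strand at chr16:21787835-21788084, Pdk4 on the minus strand at chr6:5496279-5496528 and Hadhb on the plus strand at chr5:30155003-30155252. Capitals mark the 50 bases nearest the start for Ehhadh and Pdk4. For Hadhb they mark the 228 bases that also fall within the 250 bases in front of Hadha, which is read in the opposite direction.
Ehhadh: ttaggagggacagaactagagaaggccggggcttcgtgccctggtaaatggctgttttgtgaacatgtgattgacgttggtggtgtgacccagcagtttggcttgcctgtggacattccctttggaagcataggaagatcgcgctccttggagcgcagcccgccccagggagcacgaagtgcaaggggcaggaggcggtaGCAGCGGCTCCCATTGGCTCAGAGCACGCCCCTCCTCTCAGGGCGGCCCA
Pdk4: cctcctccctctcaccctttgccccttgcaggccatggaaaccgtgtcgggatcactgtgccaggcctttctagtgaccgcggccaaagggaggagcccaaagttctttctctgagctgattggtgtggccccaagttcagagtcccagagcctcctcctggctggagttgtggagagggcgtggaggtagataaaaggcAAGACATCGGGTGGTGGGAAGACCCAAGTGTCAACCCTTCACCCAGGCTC
Hadhb: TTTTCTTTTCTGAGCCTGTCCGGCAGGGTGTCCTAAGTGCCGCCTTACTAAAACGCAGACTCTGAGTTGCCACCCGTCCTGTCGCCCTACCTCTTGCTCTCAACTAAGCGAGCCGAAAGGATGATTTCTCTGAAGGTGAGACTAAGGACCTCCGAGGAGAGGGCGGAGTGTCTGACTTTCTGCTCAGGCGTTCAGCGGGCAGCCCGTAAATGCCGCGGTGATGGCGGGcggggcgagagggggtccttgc

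The RefSeq table gave a window of 250 bases before to 50 after the start for 31 of the 37 members. The letters AGGTCA, a hexamer recognised by nuclear receptors such as PPARalpha, were searched on both strands. They occurred in the windows of 5 members, Acadm, Acadvl, Cpt1a, Echs1 and Ucp3, and in 16.3% of all 32851 windows. The paired form AGGTCANAGGTCA, whose matches also count for the single hexamer, occurred in 0 member windows and in 0.0396% of all windows. None of the 3 windows above held either form, which says only that these letters are not in this stretch.

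Levels were first compared between genes as TPM, a share of transcripts in which reads are divided by exonic length. The mean over the 20 libraries was highest for Acadl, a mitochondrial acyl-CoA dehydrogenase, at 868 TPM, with group means of 722 to 1058 TPM. Pdk4, the kinase that shuts glucose carbon out of the citric acid cycle, followed at 829 TPM, and Acsl1, the main acyl-CoA synthetase of adipocytes, at 712 TPM. The order differed between groups: Pdk4 had a higher mean than Acadl on chow, at 1178 TPM with water and 1093 TPM with tea, as had Acsl1 at 1081 TPM on chow with tea, differences smaller than the SDs of these groups. Ehhadh, the bifunctional enzyme of the peroxisomal cycle, averaged 467 TPM over all libraries, but 1030 TPM on chow with tea and 84.3 TPM on the high-fat diet with water, where Hsd17b4 at 399 TPM, Abcd2 at 317 TPM and Acaa1b at 154 TPM were above it. The lowest were Acox2, a peroxisomal oxidase of branched acyl groups, at 3.33 TPM, and Cpt1b, the muscle and brown fat form of the carnitine shuttle's entry enzyme, at 1.06 TPM. Cpt1a, the form found in liver and many other tissues, stood at 66.01 TPM. Reads of Cpt1b may be understated, since 81.4% of its exonic bases also belong to another annotated gene. The same applies to Etfb with 58.2% and Acadvl with 42.9%.

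**Figure D1:**
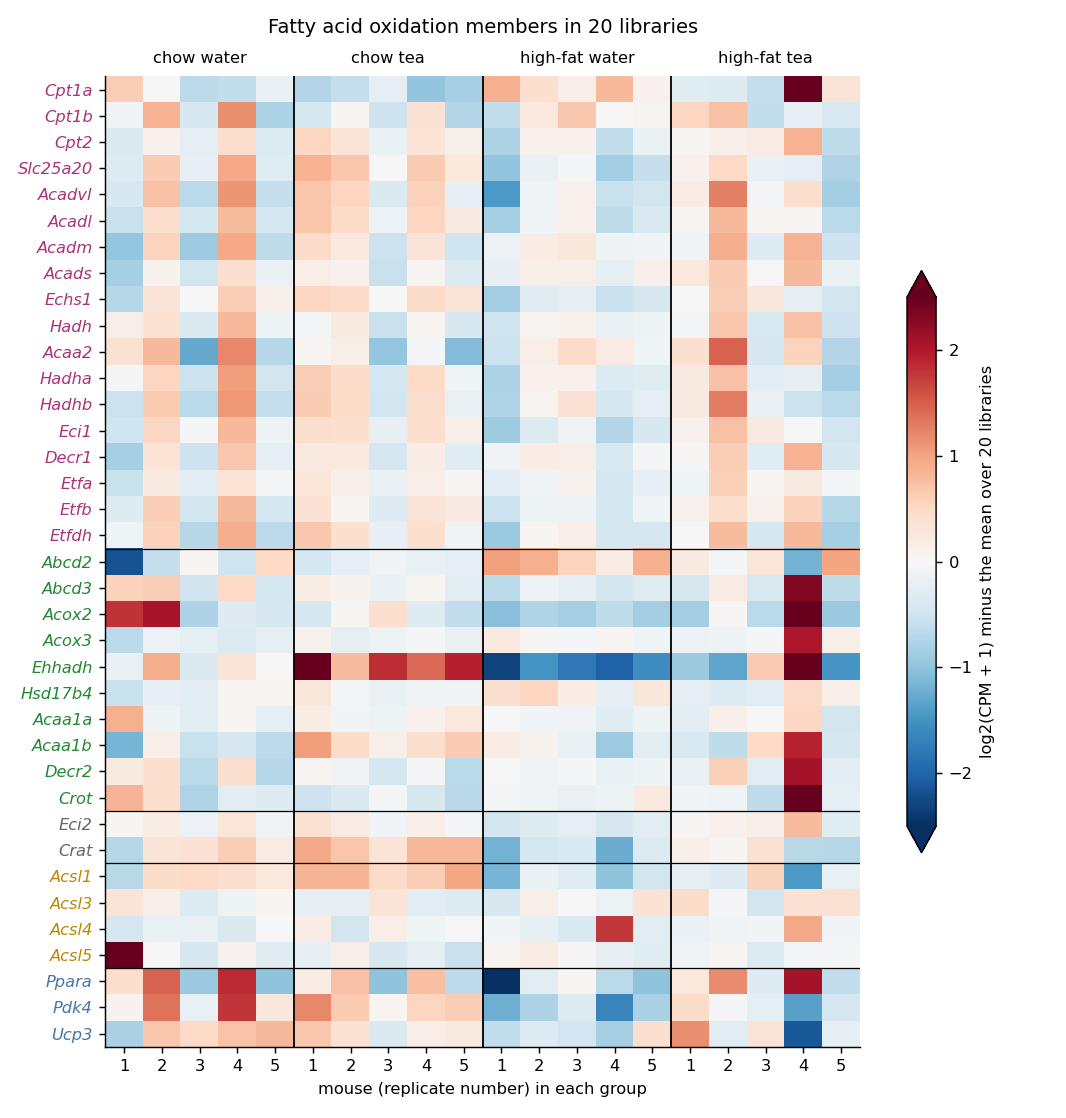
Level of each of the 37 members (vertical axis) in each of the 20 mice (horizontal axis, 4 groups of 5), as log2(CPM + 1) minus the gene's mean over all libraries; colours beyond 2.5 in either direction are saturated. The mitochondrial block darkens together in single mice such as chow water 4 and high-fat tea 2, while the peroxisomal block is darkest in high-fat tea 4.

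High-fat feeding in water-drinking mice lowered 3 of the 37 members: Pdk4, Ehhadh and Crat, the carnitine acetyltransferase that buffers acetyl-CoA. Among all genes tested 15.2% were called and 7.11% were called lower, so the 3 of 37 lower members are near the share of all genes. None of the 18 mitochondrial members was called, although 15 of them had negative values, as had 10688 of all 21306 genes. By edgeR's quasi-likelihood test 3 of those 18 had an unadjusted p under 0.05, against 30.8% of all genes. DESeq2 called 3 of them (Echs1, Eci1 and Slc25a20), against 20.7% of all genes, and limma voom called 0, against 14.3%. The median log2 change was -0.37 over all members, -0.36 over the mitochondrial ones, -0.12 over the peroxisomal ones and -0.00 over all genes tested. The mitochondrial median depended on 1 mouse, being -0.08 without chow water mouse 4. The peroxisomal median changed sign to 0.12 without the 3 libraries. Libraries of the 2 groups did not overlap for 3 lower members, against 5.59% of all genes; these were Pdk4, Ehhadh and Eci2. Macrophage markers differed between the same groups: 5 of 10 were called higher on the high-fat diet (3 without chow water mouse 2 or high-fat water mouse 1), as were 1718 of all 21306 genes. On the unscaled library size, their summed level was 291 to 1827 CPM in chow water mice and 1480 to 4045 CPM in high-fat water mice. The 291 CPM is from chow water mouse 1, and the other chow water mice had 863 to 1827 CPM. The part of macrophage transcripts in the members' changes was not tested.

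Pdk4 lies at chr6:5483351-5496309 on the minus strand of GRCm39, the build of the count tables, as do all gene positions below. Its level was 855, 2062, 706, 2769 and 974 CPM in chow water mice 1 to 5 and 344, 469, 638, 255 and 460 CPM in high-fat water mice. Every high-fat mouse lay below every chow mouse. The log2 change was -1.77 ± 0.40 (SE), a 3.4-fold decrease, with an adjusted p of 0.00755 by edgeR's quasi-likelihood test. Pdk4 was called whichever single library was left out. With tea it read 1835, 1270, 834, 1162 and 1234 CPM on chow and 1100, 779, 677, 310 and 594 CPM on the high-fat diet, so that the tea groups overlapped each other. The change from water to tea on the high-fat diet was 0.68 ± 0.39 (adjusted p = 0.302).

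Ehhadh (chr16:21580037-21606557, minus strand) had the largest fold change of the 3 called members. Its level was 230, 492, 205, 330 and 263 CPM on chow with water and 52.2, 92.9, 75.7, 63.9 and 88.9 CPM on the high-fat diet with water. The groups did not overlap, and the log2 change was -2.02 ± 0.66, a 4.07-fold decrease (edgeR's quasi-likelihood test, adjusted p = 0.0446). The call was kept without chow water mouse 1 and was lost when any of the 9 other libraries of the pair was left out in turn, with adjusted p up to 0.102 and log2 changes between -1.79 and -2.15.

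Crat (chr2:30290483-30305825, minus strand) read 276, 563, 581, 695 and 518 CPM on chow with water and 197, 331, 346, 191 and 356 CPM on the high-fat diet with water. Chow water mouse 1 fell inside the high-fat range and the other 4 chow mice lay above it. The log2 change was -0.89 ± 0.27, a 1.85-fold decrease (edgeR's quasi-likelihood test, adjusted p = 0.0316). The call was lost without chow water mouse 2, 3 or 4 or high-fat water mouse 1 or 4, with adjusted p up to 0.0866. With tea, Crat read 864, 727, 569, 802 and 799 CPM on chow and 490, 468, 588, 280 and 273 CPM on the high-fat diet.

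**Figure D2:**
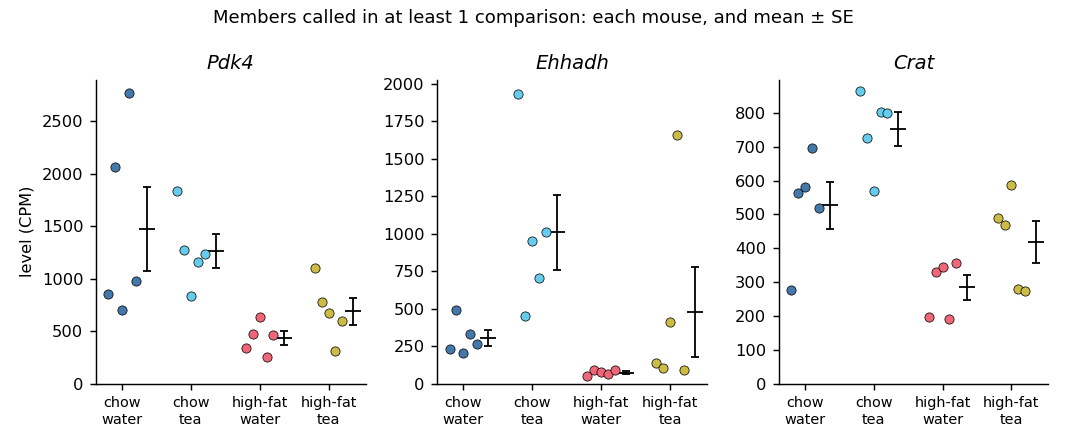
Level (CPM, vertical axis from 0) of Pdk4, Ehhadh and Crat in each mouse of the 4 groups; bars show the mean and its standard error, n = 5. High-fat water mice lie below all chow water mice for Pdk4 and Ehhadh, and 1 high-fat tea mouse at 1658 CPM lies far above the rest of its group for Ehhadh.

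The carnitine shuttle carries long-chain acyl groups across the mitochondrial membranes. Cpt1a (chr19:3372334-3435733, plus strand) read 206, 135, 84.3, 87.1 and 118 CPM on chow with water and 247, 180, 149, 236 and 145 CPM on the high-fat diet with water. The groups overlapped and the log2 change was 0.60 ± 0.51 (edgeR, adjusted p = 0.448). With tea, Cpt1a read 79.5, 88.2, 114, 66.6 and 74.3 CPM on chow and 108, 107, 88.4, 885 and 167 CPM on the high-fat diet. The value of 885 CPM belongs to the library rich in kidney transcripts, which also held liver and intestine transcripts. Without the 3 libraries Cpt1a was called higher in the diet comparison, at 0.76 ± 0.23 (edgeR's quasi-likelihood test, adjusted p = 0.0291).

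Cpt1b (chr15:89300608-89310066, minus strand) stayed low, with 0.151 to 3.47 CPM on chow with water, 0.202 to 1.55 CPM on chow with tea, 0.306 to 2.19 CPM on the high-fat diet with water and 0.309 to 2.31 CPM on the high-fat diet with tea. In order of mouse number those values were 0.912, 2.67, 0.513, 3.47 and 0.151 CPM, then 0.471, 1.09, 0.386, 1.55 and 0.202 CPM, then 0.306, 1.41, 2.19, 0.993 and 1.08 CPM, then 1.91, 2.31, 0.309, 0.741 and 0.536 CPM. Each group spanned more than the differences between groups, and the diet change in water was -0.37 ± 0.76 (adjusted p = 0.776).

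Cpt2 (chr4:107761178-107780807, minus strand), which returns the acyl group to coenzyme A inside, read 141, 195, 153, 243 and 142 CPM on chow with water and 264, 226, 161, 231 and 200 CPM on chow with tea. On the high-fat diet it read 106, 196, 195, 118 and 162 CPM with water and 184, 198, 208, 333 and 116 CPM with tea. All 4 groups overlapped, and the diet change in water was -0.17 ± 0.25 (adjusted p = 0.679). Slc25a20, the translocase between these steps, was nearer to the threshold at -0.74 ± 0.29 (adjusted p = 0.0866).

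Of the dehydrogenases that open the mitochondrial cycle, Acadl (chr1:66869998-66902436, minus strand) read 363, 721, 395, 927 and 394 CPM on chow with water and 860, 746, 481, 776 and 621 CPM on chow with tea. On the high-fat diet it read 301, 512, 574, 342 and 412 CPM with water and 544, 934, 559, 543 and 332 CPM with tea. The groups overlapped, with a diet change in water of -0.39 ± 0.30 (edgeR, adjusted p = 0.398). Chow water mice 2 and 4 and high-fat tea mouse 2 were the high ones in their groups, a pattern shared by most mitochondrial members.

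Acadm (chr3:153627994-153650269, minus strand), the medium-chain dehydrogenase, read 245, 706, 254, 928 and 308 CPM on chow with water and 664, 570, 329, 597 and 337 CPM on chow with tea. On the high-fat diet it read 434, 541, 584, 440 and 452 CPM with water and 455, 894, 381, 878 and 335 CPM with tea. Its diet change in water was near 0, with an SE of 0.38 (adjusted p = 0.994). Acads for short chains and Acadvl for very long chains were not called, with diet changes of 0.13 and -0.64.

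Hadha (chr5:30323302-30360160, minus strand) and Hadhb (chr5:30360246-30389591, plus strand) encode the subunits of the mitochondrial trifunctional protein and lie 85 bases apart in opposite directions. Hadha read 438, 648, 309, 925 and 323 CPM on chow with water, 684, 615, 327, 634 and 412 CPM on chow with tea, 263, 483, 478, 353 and 362 CPM on the high-fat diet with water and 523, 747, 372, 377 and 248.9 CPM on the high-fat diet with tea. The groups overlapped and the diet change in water was -0.45 ± 0.33 (adjusted p = 0.376). Hadhb ranged from 227 to 929 CPM over the 20 libraries. Over those libraries Hadha and Hadhb correlated with r = 0.936, a description of points that share a library and its depth. The stretch printed above lies between the RefSeq start sites of the pair, which are farther apart than the gene ends in the annotation of the count tables.

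The remaining mitochondrial members were not called by diet in water. Eci1 and Decr1 prepare unsaturated acyl groups for the cycle, and their changes were -0.67 (adjusted p = 0.0708) and -0.01. Echs1, the enoyl-CoA hydratase, stood at -0.59 (adjusted p = 0.0786), Hadh, the short-chain hydroxyacyl-CoA dehydrogenase, at -0.34 and Acaa2, the mitochondrial thiolase, at -0.28. The electron transfer genes Etfa, Etfb and Etfdh stood at -0.14, -0.46 and -0.41.

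Among peroxisomal members, the transporters of acyl-CoA into the organelle differed in sign. Abcd2 read 72.5, 224, 345, 235 and 471 CPM on chow with water and 676, 617, 491, 384 and 620 CPM on the high-fat diet with water, a change of 1.05 ± 0.38 (edgeR, adjusted p = 0.0683). Chow water mouse 5 fell inside the high-fat range and the other 4 chow mice lay below it. Abcd3 stood at -0.58 ± 0.45 (adjusted p = 0.402). The oxidases Acox2 and Acox3 stood at -4.14 ± 1.64 and 0.37 ± 0.33, and Acox2 rests on very low levels of 0.205 to 7.59 CPM on chow and at most 0.325 CPM on the high-fat diet. Acox3 was the 1 of 37 members whose high-fat libraries all lay above the chow ones, against 7.34% of all genes, at 54.8 to 68.9 CPM against 36.4 to 52.6 CPM.

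Hsd17b4, the second bifunctional enzyme of the peroxisomal cycle, stood at 0.42 and the thiolases Acaa1a and Acaa1b at -0.25 and 0.31. Acaa1a and Acaa1b are close copies that can exchange reads, so their split is uncertain. Decr2, for unsaturated acyl groups, stood at -0.11 and Crot, which makes the carnitine esters that leave the peroxisome, at -0.14, which was 0.16 without the 3 libraries. Eci2, an isomerase found in both compartments, read 92.6, 101, 80.5, 111 and 84.4 CPM on chow with water and 64.5, 71.0, 75.9, 67.0 and 73.2 CPM on the high-fat diet with water. Those groups did not overlap, and the change of -0.42 ± 0.16 was not called (adjusted p = 0.0751).

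The synthetases that activate fatty acids were not called. Acsl1 (chr8:46924074-46989088, plus strand) read 1338, 2976, 3075, 2907 and 2614 CPM on chow with water, 3945, 3920, 3038, 3324 and 4280 CPM on chow with tea, 975, 1929, 1757, 1089 and 1584 CPM on the high-fat diet with water and 1849, 1729, 3251, 807 and 1905 CPM on the high-fat diet with tea. Chow water mouse 1 fell inside the high-fat water range and the other 4 chow water mice lay above it. The change was -0.82 ± 0.31 (edgeR, adjusted p = 0.0858). Acsl3 stood at -0.01. Acsl4 stood at 0.68, with 154 CPM in high-fat water mouse 4 and 34.0 to 42.7 CPM in the other 4, and at -0.06 without the 3 libraries. Acsl5 stood at -0.97, with 395 CPM in chow water mouse 1 and 49.7 to 70.4 CPM in the other 4, and at 0.15 without the 3 libraries.

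Ppara (chr15:85619184-85687020, plus strand), the fatty acid receptor that drives many of these genes in liver, varied widely within groups. It read 39.4, 81.7, 14.8, 109 and 14.0 CPM on chow with water, 33.1, 48.8, 14.0, 49.7 and 18.0 CPM on chow with tea, 4.04, 23.9, 29.8, 17.7 and 14.0 CPM on the high-fat diet with water and 35.2, 66.9, 22.9, 126 and 18.5 CPM on the high-fat diet with tea. The groups overlapped, and the diet change in water of -1.53 ± 0.66 was not called (adjusted p = 0.122). Ucp3, a mitochondrial carrier induced by fatty acids, stood at -0.79 (adjusted p = 0.221). Its highest values on the high-fat diet, 128 CPM with water and 216 CPM with tea, were in the pair of mice with most muscle transcripts, and the part of muscle in them was not tested.

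The set of called members changed with the libraries included. Without the 3 libraries, 12 members were called in the diet comparison, against 21.2% of all genes. Those lower were Pdk4, Ehhadh, Crat, Acox2, Acsl1, Echs1, Eci2 and Ucp3, and those higher were Abcd2, Acox3, Cpt1a and Hsd17b4. Leaving out chow water mouse 1 alone gave 7 members, all lower and 3 of them mitochondrial, and leaving out any other single library gave 1 to 3. The share of all genes called in those fits is not given, so these counts cannot be set against it. Without all 9 libraries with other-tissue transcripts, 5 members were called, against 9.2% of all genes: Ehhadh at -1.90, Crat at -1.21 and Ucp3 at -1.17, and, higher, Cpt1a at 1.12 and Acaa1b at 0.67. That comparison rested on chow water mice 3 to 5 and high-fat water mice 1 and 2 only. Pdk4 then stood at -1.89 (edgeR's quasi-likelihood test, adjusted p = 0.0501) and Acox2 at -2.06 (adjusted p = 0.381). Chow water mouse 2, with 1882 CPM of the kidney list, had the highest Acox2 and Ehhadh values of its group. The part of its kidney transcripts in the diet changes was not tested.

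**Figure D3:**
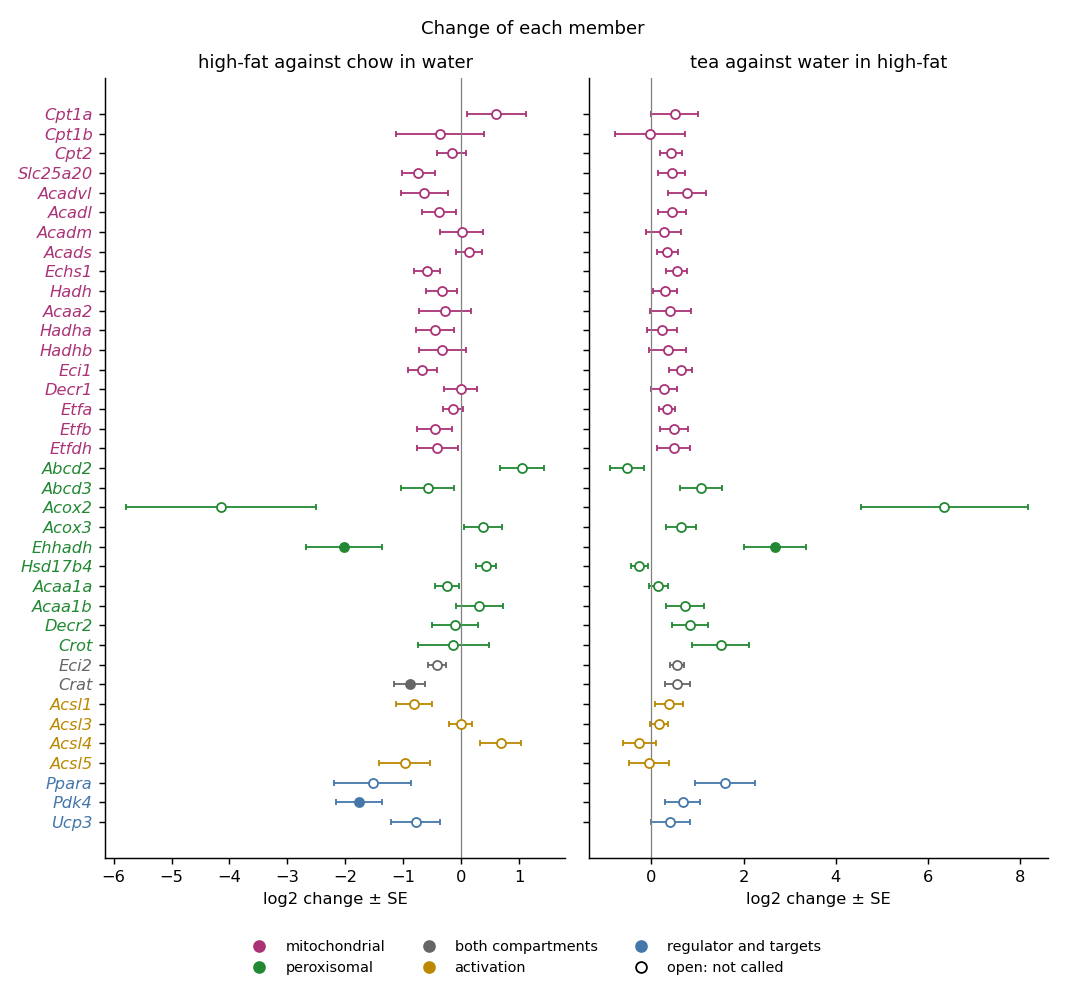
Log2 change with its standard error (horizontal axis) of each member (vertical axis, coloured by compartment) for the high-fat diet against chow in water-drinking mice and for tea or water drunk by mice on the high-fat diet; filled points were called. Pdk4, Ehhadh and Crat are filled in the diet panel and Ehhadh alone in the tea panel.

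Tea in high-fat-fed mice raised 1 of the 37 members, Ehhadh, against 4.36% of all genes called and 2.06% called higher. Positive values were found for 17 of 18 mitochondrial members and for 11050 of all 21306 genes. The median log2 change of these members was 0.41, against 0.02 over all genes tested, and none of them was called. By edgeR's quasi-likelihood test 2 of the 18 had an unadjusted p under 0.05, against 23.6% of all genes. DESeq2 and limma voom called 0 of them, against 11.4% and 5.25% of all genes. The peroxisomal median was 0.78, and -0.01 without high-fat tea mouse 4. The mitochondrial median was 0.31 without that mouse. Of the 10 macrophage markers 3 were called lower with tea (0 without high-fat tea mouse 2 or 3 or high-fat water mouse 1, 1 without high-fat tea mouse 1 or high-fat water mouse 2, and 2 without high-fat tea mouse 4 or high-fat water mouse 3 or 4), as were 489 of all 21306 genes. On the unscaled library size, their summed level was 515 to 2135 CPM in the high-fat tea group. The 515 CPM is from mouse 4, and the others had 1105 to 2135 CPM. The part of macrophage transcripts in the members' values was not tested.

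Ehhadh read 137, 105, 414, 1658 and 93.8 CPM in high-fat tea mice, each above the highest high-fat water mouse at 92.9 CPM; groups separated upward in this way for 2.37% of all genes. Mouse 5 cleared that mark by a small margin. The log2 change was 2.69 ± 0.67, a 6.44-fold increase (edgeR's quasi-likelihood test, adjusted p = 0.0326). Without high-fat tea mouse 4 it was 1.33 (adjusted p = 0.0988), and the call was kept in 3 of the 10 fits that left out 1 library of the pair, those without high-fat tea mouse 1, 2 or 5. Without each of the 5 high-fat water mice or high-fat tea mouse 3 the adjusted p was 0.0531 to 0.0936. On chow, Ehhadh read 1934, 453, 950, 705 and 1014 CPM with tea, and the change from water was 1.73 ± 0.65 (adjusted p = 0.283).

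High-fat tea mouse 4 held the highest value of its group for 9 of the 10 peroxisomal members, all but Abcd2. Its value was 1.25 times the next highest for Hsd17b4 and 61.9 times the next highest for Acox2. Crot stood at 504 CPM there against 30.6 to 46.2 CPM in the other 4 mice, Abcd3 at 694 against 88.5 to 161 CPM and Acox3 at 239 against 52.5 to 64.3 CPM. The kidney marker Kap read 14000 CPM in that library and 0.0838 to 10.6 CPM in the other 4, and Adipoq read 844 CPM there against 2057 to 3695 CPM. On the unscaled library size, the summed kidney list was 1.18 to 24060 CPM in the high-fat tea group and 1.75 to 46.4 CPM in the high-fat water group. High-fat tea mouse 4 also carried 1795 CPM of the liver list and 643 CPM of the intestine list. The part of kidney, liver and intestine transcripts in the Ehhadh result was not tested. Without the 3 libraries, 1 member was called, against 7.48% of all genes: Hsd17b4, lower with tea at -0.51 ± 0.13 (edgeR's quasi-likelihood test, adjusted p = 0.0324). The Ehhadh change was then 1.28 ± 0.49 (adjusted p = 0.116). Without all 9 libraries it was 0.46 (adjusted p = 0.61) and 0 members were called, against 0.0583% of all genes. Only high-fat tea mice 2 and 5 and high-fat water mice 1 and 2 were left in that comparison. The absence of calls there therefore decides little.

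Other members with an unadjusted p under 0.05 in this comparison were not called. Eci2 stood at 0.55 ± 0.16 (edgeR, adjusted p = 0.0519) and Acox2 at 6.35 ± 1.80 (adjusted p = 0.0523). Crot stood at 1.5, Abcd3 at 1.08, Decr2 at 0.83, Eci1 at 0.63, Crat at 0.56, Echs1 at 0.54 and Ppara at 1.59, with adjusted p between 0.131 and 0.207. Without high-fat tea mouse 4, Crot stood at -0.21, Abcd3 at 0.08, Decr2 at 0.11, Acox2 at 1.24, Eci2 at 0.35 and Ppara at 1.00, while Eci1 at 0.67, Crat at 0.68 and Echs1 at 0.61 were no lower than with it. Acadl, Acadm, Hadha, Cpt1a, Cpt2 and Acsl1 stood between 0.23 and 0.50, and Cpt1b at -0.04. The Cpt1a value changed sign to -0.70 without high-fat tea mouse 4. Of the 5 members with negative values, Abcd2 stood lowest at -0.53.

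In the 3 remaining comparisons no member was called by edgeR's quasi-likelihood test. Tea on chow called 0 members, against 0.0235% of all genes, and the member median was 0.04. At an unadjusted p under 0.05 it gave 3 of 37 members, against 12.4% of all genes, and DESeq2 and limma voom called 0 members. High-fat diet against chow in tea-drinking mice called 0 members, against 0.178% of all genes. At the unadjusted threshold it gave 8 of 37, against 16.3% of all genes. Cpt1a, Acox2, Acox3, Decr2 and Crot had positive values, and Crat, Acsl1 and Pdk4 negative ones. High-fat tea mouse 4 was the highest of its group for each positive one. Without the 3 libraries the positive ones stood at 0.47, -1.12, 0.05, 0.23 and 0.15 in that order. The negative ones then stood at -0.726, -0.761 and -0.685. DESeq2 called Acsl1, Cpt1a and Crat, against 4.32% of all genes, and limma voom called 0 members. Ehhadh was called lower there without high-fat tea mouse 4, at -2.43 (adjusted p = 0.049) in place of -1.07, and Acsl1 without high-fat tea mouse 3, at -1.24 (adjusted p = 0.049) in place of -0.96. The interaction of diet and tea called 0 members, against 0.0657% of all genes. At the unadjusted threshold it gave 4 of 37, against 15% of all genes. These were Acox2, Crot, Eci2 and Ppara, all with positive values, and high-fat tea mouse 4 was the highest of its group for each. DESeq2 called Acox2, against 3.24% of all genes, and limma voom called 0 members. All 18 mitochondrial members had a positive interaction value, as had 11536 of all 21306 genes, and 16 of 18 did without the 3 libraries. The median of the 18 was 0.31, against 0.05 over all genes, and 0.12 to 0.49 without 1 library. Of the 18, 0 had an unadjusted p under 0.05 by edgeR's quasi-likelihood test, and most of them varied together in single mice. These comparisons share groups with the first pair, so their values are not independent of them.

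Within groups, mitochondrial members varied together with markers of brown or beige fat. The summed level of the 18 genes was 3291 to 8104 CPM in chow water mice, 3640 to 6312 CPM in chow tea mice, 3208 to 5072 CPM in high-fat water mice and 3204 to 8031 CPM in high-fat tea mice. The summed level of 7 brown or beige markers (Ucp1, Cidea, Cox7a1, Cox8b, Elovl3, Dio2 and Otop1) ran from 18.6 CPM in high-fat water mouse 1 to 1658 CPM in chow water mouse 4, whose mitochondrial sums were 3208 and 8104 CPM. Ucp1, the uncoupling protein of heat-producing fat, ran from 0.59 to 869 CPM. None of these 7 markers was at 0 in any library, and none was called in the diet comparison in water or the tea comparison on the high-fat diet.

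**Figure D4:**
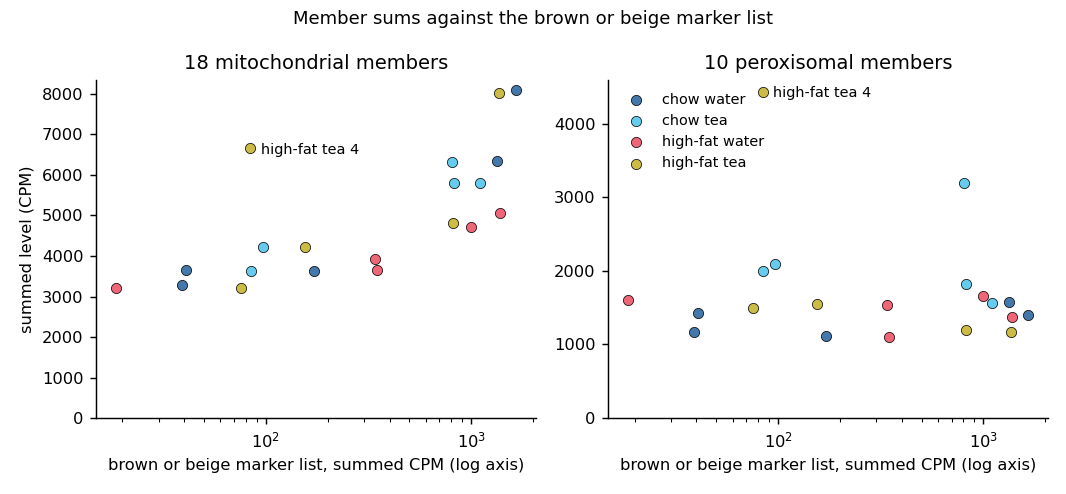
Summed level (CPM) of the 18 mitochondrial members and of the 10 peroxisomal members (vertical axes) against the summed level of 7 brown or beige markers (horizontal log axis) in each of the 20 mice, coloured by group. Mitochondrial sums are at 4715 CPM or above in all libraries with 808 CPM or more of the markers, and peroxisomal sums show no such order; high-fat tea mouse 4 stands apart in both panels.

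This was examined, after the pattern had been seen, by adding the log2 level of the marker list to the model of 4 group means. Of 18 mitochondrial members, 9 were called higher with the marker level, as were 0 of 10 peroxisomal members, against 0.451% of all genes. The 9 were Cpt1b, Slc25a20, Acadvl, Acadl, Acaa2, Hadha, Hadhb, Eci1 and Etfdh. Per doubling of the markers, Cpt1b was higher by 0.52 ± 0.07 on the log2 scale (edgeR's quasi-likelihood test, adjusted p = 0.000789) and Hadha by 0.22 ± 0.03 (adjusted p = 0.000203). The median slope was 0.16 over mitochondrial members, -0.02 over peroxisomal members and -0.01 over all genes. The slope was positive within each of the 4 groups for 16 of the 18, the exceptions being Cpt1a and Cpt2. Etfdh kept its call in only 2 of 20 fits that left out 1 library, Eci1 in 17, and the 7 others in all 20. The slopes were not fitted without all 9 libraries. Of the mice with 808 CPM or more of the markers, chow water 2, chow tea 1, high-fat water 3 and high-fat tea 1 carried 4803 to 36110 CPM of muscle transcripts. The others at that marker level carried 33.66 to 74.55 CPM, all on the unscaled library size. The part of muscle in the slopes was not tested.

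Without the 3 libraries the slope was called higher for 17 of 18 mitochondrial members, all but Cpt1a, and for 2 of 10 peroxisomal members, Abcd3 and Decr2, against 3.45% of all genes. Abcd2 was called lower. Ppara was called in that fit, at 0.47 per doubling (adjusted p = 2.1e-07), and stood at 0.38 ± 0.09 with all libraries (adjusted p = 0.0883). Pdk4 was likewise called, at 0.19 (adjusted p = 0.00912). Whether the slopes of the 2 compartments differ was not tested. More brown or beige cells in a sample and more of these transcripts per cell cannot be told apart.

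**Figure D5:**
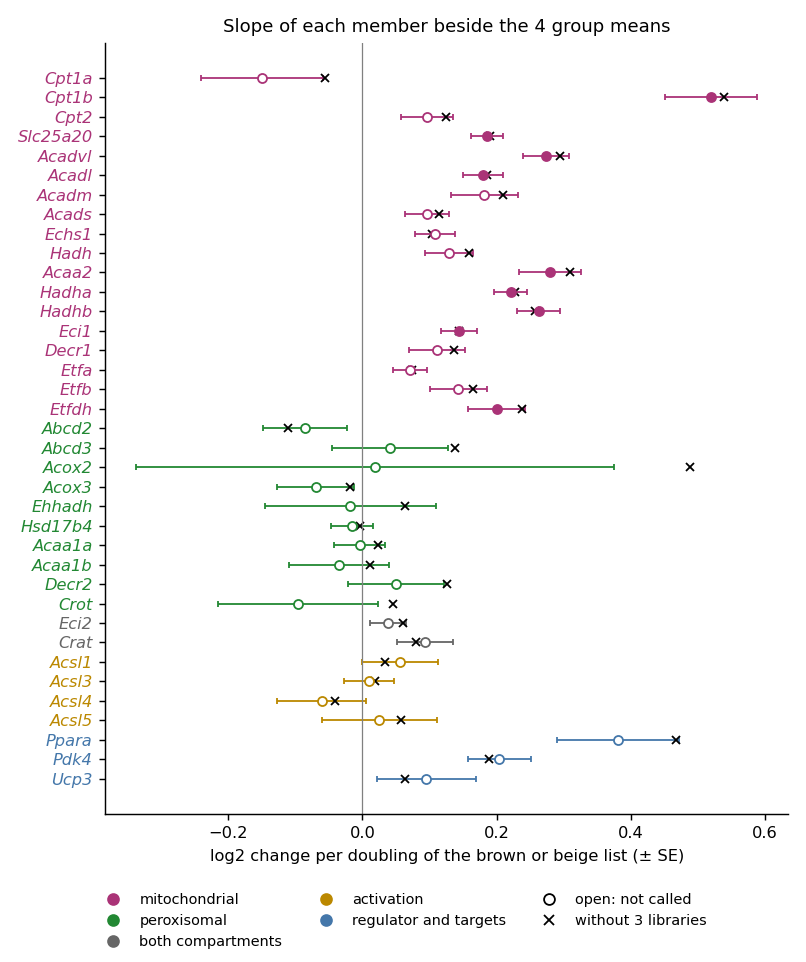
Log2 change of each member per doubling of the brown or beige marker level, beside the 4 group means (points with standard error on the horizontal axis; filled points were called; crosses give the slope without the 3 libraries rich in other-organ transcripts). Mitochondrial members other than Cpt1a lie to the right of 0, and peroxisomal members lie between -0.10 and 0.05 with all libraries.

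Genes around the pathway were counted in 5 lists. Counts in other fits show only how stable a list count is, since the share of all genes called also moved. For diet in water, DESeq2 called 20.7% of all genes, limma voom 14.3% and the fit without the 3 libraries 21.2%, against 15.2%. For tea on the high-fat diet these were 11.4%, 5.25% and 7.48%, against 4.36%. Shares for fits without 1 library are not given, so list counts there cannot be set against all genes. Without all 9 libraries with other-tissue transcripts, tea on the high-fat diet raised or lowered 0 genes of these lists, against 0.0583% of all genes. At that share, a count of 0 is no result about the lists. Of 32 genes of peroxisome assembly and other peroxisomal proteins, 5 were called lower by the high-fat diet in water and 0 higher, against 7.11% of all genes called lower, with a list median of -0.43. The count lower was 12 without chow water mouse 1, 2 without high-fat water mouse 1 or 4, 3 without high-fat water mouse 3 and 12 (with 3 higher) without the 3 libraries, and DESeq2 gave 10 and limma voom 6. Pex5, the receptor that imports matrix enzymes, averaged 138 ± 25.6 CPM on chow and 73.4 ± 7.35 CPM on the high-fat diet (SD, n = 5), a log2 change of -0.92 ± 0.17 (edgeR's quasi-likelihood test, adjusted p = 0.00274) with no overlap between groups. Pex3, a membrane assembly factor, stood at -0.71 and catalase (Cat), which removes the hydrogen peroxide that peroxisomal oxidation makes, at -1.08. The Cat call was lost without chow water mouse 3 or high-fat water mouse 1 or 4, with adjusted p up to 0.0567. Tea on the high-fat diet raised 1 of the 32, against 2.06% of all genes (9 without high-fat tea mouse 5, 3 without high-fat tea mouse 1, 2 without high-fat tea mouse 4 or high-fat water mouse 5, and 8 by DESeq2), Pex5, at 0.77 ± 0.17 (adjusted p = 0.0199), again with no overlap. It stood at 0.83 without high-fat tea mouse 4 and lost the call without high-fat water mouse 1 (adjusted p = 0.0647). Pex3 at 0.59 and Pex10 at 0.58 were not called. In tea-drinking mice the high-fat diet lowered Pex16, at -1.15 (adjusted p = 0.0375), a call kept in 2 of 10 fits that left out 1 library, those without chow tea mouse 3 or high-fat tea mouse 3.

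Malonyl-CoA blocks the entry enzyme of the carnitine shuttle. A list of 10 genes covered malonyl-CoA and AMP-activated kinase control of this entry. Of these, diet in water lowered 3 and raised 0, against 7.11% of all genes called lower. The count lower was 1 without chow water mouse 4 or high-fat water mouse 1 or 4, 2 to 4 without any other single library, 5 by DESeq2 and 2 by limma voom. Acacb, the acetyl-CoA carboxylase at the mitochondrial surface, averaged 945 ± 387 CPM on chow and 215 ± 71.8 CPM on the high-fat diet (SD, n = 5). Its change was -2.14 ± 0.43 (edgeR's quasi-likelihood test, adjusted p = 0.00437) with no overlap. Mlycd, the decarboxylase that removes malonyl-CoA, stood at -0.76 and Acaca, the cytosolic carboxylase, at -1.55. The Mlycd call was lost without chow water mouse 2 or 4 or high-fat water mouse 1 or 4. The Acaca call was lost without chow water mouse 4 or high-fat water mouse 1, 3 or 4, and its change was -1.01 at the least. Tea on the high-fat diet raised 1, against 2.06% of all genes called higher (3 without high-fat tea mouse 5, 2 without high-fat tea mouse 4 and 4 by DESeq2). This was Acacb, at 1.94 ± 0.43 (edgeR's quasi-likelihood test, adjusted p = 0.0201). Mlycd at 0.71 and Prkab1, a subunit of AMP-activated kinase, at 0.53 were not called. The Acacb call was kept without high-fat tea mouse 4, at 2.20, and lost without high-fat water mouse 1 or 2 or high-fat tea mouse 2 or 3 (adjusted p up to 0.065).

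Of 20 PPAR, co-activator and further target genes, diet in water lowered 6 and raised 0, against 7.11% of all genes called lower. The count was 3 without any 1 of the 5 high-fat water mice and by limma voom, 5 by DESeq2 and 7 without the 3 libraries. Fgf21 and Creb3l3, 2 of the 6, were not called without chow water mouse 1. Vnn1, a pantetheinase, averaged 118 ± 44.5 CPM on chow and 33.0 ± 8.17 CPM on the high-fat diet (SD, n = 5), a change of -1.84 ± 0.35 (edgeR's quasi-likelihood test, adjusted p = 0.00284) with no overlap. The receptor Ppard stood at -0.68 and the co-activator Ppargc1b at -1.49, the latter losing its call without chow water mouse 4 or high-fat water mouse 1. Tea on the high-fat diet raised 2, against 2.06% of all genes called higher. The count was 3 without high-fat tea mouse 5, and 1 without high-fat tea mouse 2, 3 or 4 or any 1 of the high-fat water mice. Vnn1 averaged 185 ± 93.3 CPM with tea, a change of 2.48 ± 0.35 (adjusted p = 0.0022) with no overlap, and was called whichever single library was left out. Cyp4a10, a fatty acid omega-hydroxylase, averaged 170 ± 372 CPM with tea against 0.406 ± 0.293 CPM with water (SD, n = 5), a change of 8.68 ± 2.30 (adjusted p = 0.0409). That change was 3.0 without high-fat tea mouse 4 (adjusted p = 0.227), and the call was kept only without high-fat tea mouse 1 or 5. Cyp4a14 at 8.75 was not called.

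Diet in water lowered 7.11% of all genes tested. Of 17 tested genes of mitochondrial content, it lowered Phb2, a prohibitin of the inner membrane, at -0.55 (edgeR's quasi-likelihood test, adjusted p = 0.0447), and the import and channel genes Timm23 and Vdac2 were not called. Of 7 tested genes of flavin and carnitine supply, it lowered the flavin carrier Slc25a32 at -0.74 (adjusted p = 0.0424), and Bbox1 and Slc22a5 were not called. Phb2 and Slc25a32 each kept the call in 2 of 10 fits that left out 1 library, and Phb2 lost it without the 3 libraries together (adjusted p = 0.127). Tea on the high-fat diet changed 0 genes of either list by edgeR's quasi-likelihood test, DESeq2 or limma voom, against 4.36%, 11.4% and 5.25% of all genes. Without high-fat tea mouse 5 it changed 2 and 1. Of all genes, 23.6% had an unadjusted p under 0.05. At an unadjusted p under 0.05 there were 3 in the first list, led by Mfn1 at 0.51, Tfam at 0.49 and Phb2 at 0.39, and 2 in the second, where Slc22a5 stood at 1.19, Aldh9a1 at 1.04 and Slc25a32 at 0.48. Medians under tea were 0.24 and 0.48, and 0.23 and 0.14 without high-fat tea mouse 4.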

How the data were processed

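PolyA RNA from white adipose tissue of 20 mice, 5 per group, was sequenced from a stranded library kit, per the labels. The authors trimmed reads with fastp 0.23.2, aligned them with HISAT2 2.2.1 and counted with featureCounts 2.0.6, per the submitters' processing notes. The deposited values are raw counts per gene, with GENCODE vM32 on GRCm39 and no strand option per the file headers; the notes name mm10, and positions follow the headers. Between 68.1% and 72.2% of counts from 1 to 20 were even, as when both reads of a pair are counted. Reads from opposite strands cannot be told apart where genes overlap, as 15 members do.

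Counts were scaled by TMM and tested with edgeR 4.0.16 in R 4.3.3 (quasi-likelihood test, 4 group means, 20 libraries, Benjamini-Hochberg threshold 0.05). Genes needed about 10 reads in 5 libraries and 15 in all, which removed 35499 of 56805. Depth was 53047057 to 93314761 reads in genes. p-values measure the spread between separate mice. Libraries of a group were no duplicates, differing by a chi-square per gene of at least 68.7 over 40 pairs. Alternatives were DESeq2 1.42.0, limma 3.58.1 voom, DESeq2 size factors, no filter, a replicate block, only the groups compared, and leaving out libraries; the brown or beige marker covariate was chosen after seeing the data. Scripts were tested on simulated data.

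Members and lists were chosen with earlier results of these data known. Values are given for every called member, for Cpt1a, Cpt1b, Cpt2, Acadl, Acadm, Hadha, Ehhadh, Acsl1, Ppara and Pdk4, and for up to 3 genes of lowest p in each pathway list; 1 further list of pathway genes is not reported here. Promoter sequences are from RefSeq (GRCm38.p6). Same-numbered mice did not deviate together, so numbers were not used as pairs.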

Additional observations from a re-analysis of the deposited data

Results flagged for a closer look

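Each of the 37 members was examined in each group of 5 mice for a mouse standing apart, meaning that its gap to the nearest other mouse exceeded 0.71 of the group's whole range. Such a gap occurred in 16 of 148 groups, for 14 genes. It arises in about 1 in 20 groups of 5 separate values from a normal distribution. That rate is no background here, since the gaps were taken on CPM without logs and the members share the same mice.

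High-fat tea mouse 4, the library with 24060 CPM of kidney transcripts, accounted for 9 of the 16 as the highest of its group. Its levels were 885.3 CPM for Cpt1a, 694.3 CPM for Abcd3, 68.47 CPM for Acox2, 239.3 CPM for Acox3 and 1658 CPM for Ehhadh. They were 380.2 CPM for Acaa1b, 136.1 CPM for Decr2, 503.7 CPM for Crot and 87.61 CPM for Acsl4. Chow water mouse 1, the library with pancreas, liver and intestine transcripts, accounted for 4. It was highest for Acaa1a at 171.7 CPM and Acsl5 at 394.8 CPM, and lowest for Acsl1 at 1338 CPM and Ucp3 at 54.37 CPM. High-fat water mouse 4, with reproductive tract and adrenal cortex transcripts, was highest for Acsl4 at 154.3 CPM. The remaining cases were Crot at 57.46 CPM in high-fat water mouse 5 and Acsl3 at 27.44 CPM in chow tea mouse 3, each the highest of its group. The part of the other-organ transcripts in these values was not tested.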

How the results depend on the processing

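Of 1144 alternative values for the named members, 1019 kept their direction and side of the threshold, 32 lost and 14 gained a call, and 79 changed sign; the cause was not tested. The number of members called by diet in water (3) was 10 by the DESeq2 Wald test, 1 with the replicate block, 5 with only the groups compared, 12 without the 3 libraries, 5 without the 9 libraries over the other-tissue limit, 10 with the marker covariate and 1 to 7 without 1 library. For tea on the high-fat diet (1) it was 2 with DESeq2 size factors, 3 by the DESeq2 Wald test, 5 with the covariate, 0 to 3 without 1 library, and 0 by limma voom, with no filter, with the replicate block, with only the groups compared and without the 9 libraries. For diet in tea-drinking mice (0) it was 3 by the DESeq2 Wald test, 1 without the 3 libraries and 0 to 1 without 1 library, and for the interaction (0) 1 by the DESeq2 Wald test. The share of all genes called also moved with the setting. For diet in water it was 15.2% in the main fit, 20.7% by the DESeq2 Wald test, 21.2% without the 3 and 9.2% without the 9 libraries. For tea on the high-fat diet it was 4.36%, 11.4%, 7.48% and 0.0583% in that order. Shares for DESeq2 size factors, no filter, the replicate block, only the groups compared, the covariate and the fits without 1 library are not given. Member counts in those settings cannot be set against all genes and are no result about the members. Peroxisomal medians without the 3 and without the 9 libraries were 0.12 and 0.26 for diet in water, -0.06 and -0.09 for tea on the high-fat diet, -0.18 and -0.04 for diet in tea-drinking mice, and -0.25 and -0.20 for the interaction. Without 1 library the last 3 ran from -0.01 to 0.95, from -0.18 to 0.68 and from -0.14 to 0.87. Slopes on the markers were called for 17 mitochondrial and 2 peroxisomal members without the 3 libraries, and for 7 to 15 and 0 to 1 without 1 library. Same-numbered mice correlated with a median of 0.0074 (-0.357 to 0.583, 10 of 30 pairs over 0.1), so the numbers do not pair them; the replicate block kept 52 of 60 results and changed the sign of Cpt1b for diet in water (0.36) and of Acadl (-0.01) and Acadm (-0.08) in the interaction. By limma voom the signs of Cpt1a for tea on the high-fat diet (-0.09), Cpt1b for diet in water (0.11), and Acadl (-0.03), Acadm (-0.10) and Crat (-0.07) in the interaction changed. Acadm for diet in water was -0.03 with DESeq2 size factors and by the DESeq2 Wald test, -0.02 with no filter and -0.00 with only the groups compared. Without the 3 and without the 9 libraries, values that changed sign were -0.62 and -0.64 for Cpt1a and 0.03 and 0.73 for Cpt1b under tea on the high-fat diet, -0.13 and -0.05 for Acadm under diet in water, -0.14 and -0.13 for Acadm and -0.04 and -0.08 for Hadha under tea on chow, and, in the interaction, -0.29 and -0.45 for Cpt1a, -0.14 and -0.12 for Cpt2, -0.37 and -1.08 for Ehhadh and 0.13 and 0.00 for Acsl1. With the covariate, Cpt1b under tea on the high-fat diet was 0.06, Cpt2 under diet in tea-drinking mice 0.02 and Hadha under tea on chow -0.06. Without 1 library, ranges that crossed 0 were, for diet in water, -0.70 to 0.17 for Cpt1b and -0.21 to 0.37 for Acadm. For tea on the high-fat diet they were -0.70 to 0.72 for Cpt1a, -0.45 to 0.30 for Cpt1b and -0.03 to 0.38 for Hadha. For tea on chow they were -0.16 to 0.40 for Acadm, -0.12 to 0.32 for Hadha and -0.39 to 0.14 for Pdk4, and for diet in tea-drinking mice -0.29 to 0.09 for Cpt2. In the interaction they were -0.13 to 1.30 for Cpt1a, -0.12 to 0.26 for Cpt2, -0.13 to 0.30 for Acadl, -0.14 to 0.45 for Acadm, -0.09 to 0.36 for Hadha, -0.41 to 1.32 for Ehhadh, -0.11 to 0.26 for Crat and -0.42 to 0.07 for Acsl1. Low counts limit Cpt1b and Acox2, which had the lowest levels per length, at 12 to 273 and 0 to 4436 reads per library. For Cpt1b, overlap with another annotated gene may also understate its reads.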
